A study of Mus musculus with 6 samples.

Results

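Expression of 10 genes of the TREM2 lipid-associated macrophage program was followed in CD45+ cells from B16-F10 tumors, a transplantable mouse melanoma. The genes were taken by symbol from the 32285 genes of the deposited gene list: Trem2, Tyrobp, Apoe, Lpl, Fabp4, Fabp5, Lgals3, Cd9, Spp1 and Gpnmb. All 10 were found, and they are called the program genes here. UMIs (unique molecular identifiers, 1 per captured RNA molecule) of each gene were summed per sample and class of cells and divided by all UMIs of that class in that sample, on the usual CPM scale.

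All tumors were grown in female C57BL/6 mice aged 6 to 10 weeks. The αPD-1 group received 150 µg of an antibody to the checkpoint receptor PD-1, given 3 times a week from day 7 after inoculation. The αPD-1 + corin group received the same antibody plus 200 µg of corin, an inhibitor of the CoREST repressor complex, injected daily into the peritoneum from day 6, and the labels list a vehicle for mice without corin. Each treatment had 10 mice, tumor suspensions were cryopreserved, and live CD45+ cells were taken with magnetic beads before 10x 5′ single-cell RNA-Seq. Each group holds 3 samples. The labels do not tie mice to samples, so p-values measure only the spread between these samples, which may be technical.

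TREM2 is a lipid-sensing receptor of macrophages and microglia that signals through the adaptor TYROBP (DAP12). Macrophages that take up lipid in fat tissue, atherosclerotic plaques, degenerating brain and tumors often switch on a shared set of genes with TREM2. These include the lipid carrier APOE, the lipase LPL, the fatty acid binding proteins FABP4 and FABP5, galectin-3 (Lgals3), the tetraspanin CD9, osteopontin (Spp1) and the lysosomal membrane glycoprotein GPNMB. Many of them are also made by other cells of a tumor, so each was followed in every class of cells.

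The samples held 6433 to 13228 barcodes and 52281422 to 84276739 UMIs, and 28866 of 52899 barcodes were kept as cells. Pairs of samples shared 10 to 32 barcode sequences. Despite the CD45 selection, 951 fibroblasts, 194 endothelial cells and 1873 melanoma cells were found. The cells were grouped into 25 clusters, named by marker genes that include none of the program genes. Macrophages made up 6 clusters, each with 4 to 8 of the 8 macrophage markers (such as C1qa, Adgre1 and Csf1r) above other clusters, and 9573 cells, 779 to 931 cells per αPD-1 sample and 1231 to 4311 per αPD-1 + corin sample. They held 3118634 to 16172489 UMIs per sample. The 7 melanoma markers summed to 63.4 to 123 CPM in macrophages, and the 7 T cell markers to 41.6 to 92.5 CPM.

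The αPD-1 + corin replicate 3 stood apart from the other 2 samples of its group. Of its macrophages 0.992% were in the cluster led by Ppbp and Ccl24, against 32.1% and 28.9% in replicates 1 and 2. Its T and NK cells were 38.6% of all cells, against 3.96% and 11.6%, and its neutrophils 1.88%, against 11.2% and 33.1%. Treatment effects are therefore given with and without it.

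The program genes did not share a single cell of origin. Averaged over the 6 samples, 5 of the 10 were highest in macrophages: Trem2, Apoe, Lpl, Fabp5 and Lgals3. Of the others, Tyrobp was highest in plasmacytoid dendritic cells (pDC), Fabp4 in endothelial cells, Cd9 in neutrophils, Spp1 in fibroblasts and Gpnmb in melanoma cells. These levels are descriptions, since the classes were made from the same cells, and no test was run between classes.

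**Figure D1:**
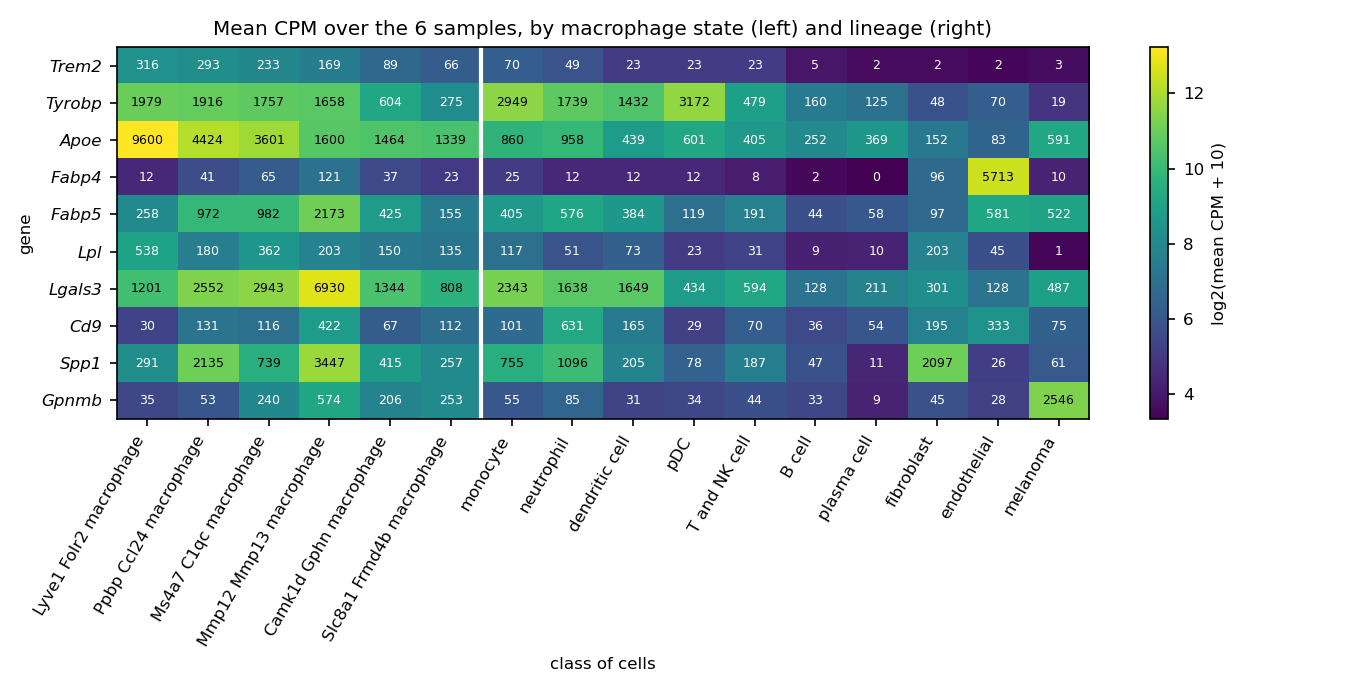
Mean CPM of each program gene (rows) over the 6 samples in each of 6 macrophage states and 10 other classes of cells (columns). Numbers are CPM and colour is log2(mean CPM + 10), and the brightest cells for Fabp4 and Gpnmb lie in endothelial (5713 CPM) and melanoma cells (2546 CPM).

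Trem2 itself stood at 221 ± 76.2 CPM in macrophages (SD, n = 6 samples). Monocytes, the blood-derived precursors of many tumor macrophages, followed at 69.6 ± 22.7 CPM. The ranges of these neighbours did not overlap, and the mean of macrophages was 3.18-fold that of monocytes. Neutrophils came next at 49.3 ± 44.4 CPM, and they overlapped with monocytes, which were higher in 4 of 6 samples. T and NK cells, which are not known to make Trem2, held 16.2 ± 0.77 CPM in αPD-1 and 30.1 ± 15.2 CPM in αPD-1 + corin samples (n = 3 each). This level serves as the background of free RNA and mixed barcodes. Macrophages lay 6.89- to 14.1-fold and monocytes 2.30- to 3.60-fold above it, while dendritic cells lay at 0.60 to 1.14 times the background and fibroblasts and melanoma cells under it in all 6 samples.

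Tyrobp, the adaptor that carries the TREM2 signal and also serves several NK cell and myeloid receptors, was spread over the myeloid cells. It reached 3172 ± 179 CPM in pDC and 2949 ± 282 CPM in monocytes, whose ranges overlapped. Macrophages had less of it than monocytes in all 6 samples, at 0.43 to 0.67 times the monocyte level. Thus receptor and adaptor were highest in different classes.

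Apoe, which carries cholesterol and phospholipid out of macrophages, was the most macrophage-weighted of the lipid genes. It stood at 4301 ± 2129 CPM in macrophages and at 958 ± 761 CPM in neutrophils, the next class, with no overlap. Its values by sample are given with the treatment comparison. T and NK cells held 148 to 229 CPM of Apoe in αPD-1 and 446 to 970 CPM in αPD-1 + corin samples, so that macrophages were 8.48- to 19.4-fold above this background.

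Lpl, which releases fatty acids from lipoproteins, stood at 299 ± 80.8 CPM in macrophages and 203 ± 89.0 CPM in fibroblasts, and macrophages were higher in 5 of 6 samples with overlapping ranges. Fabp5 was at 905 ± 248 CPM in macrophages and 581 ± 232 CPM in endothelial cells, higher in macrophages in all 6 samples although the ranges overlapped. Fabp4, its neighbour in the family of intracellular fatty acid carriers, had another home. It reached 5713 ± 1936 CPM in endothelial cells and only 54.3 ± 25.1 CPM in macrophages, and the endothelial level was 63.3- to 161-fold that of macrophages in the same sample. Thus Fabp4 and Fabp5 differed in the class where each was highest.

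Lgals3, a galectin that binds sugars on glycoproteins and damaged membranes, stood at 2760 ± 278 CPM in macrophages and 2343 ± 272 CPM in monocytes, which overlapped. Cd9, a membrane organizer of the tetraspanin family, was at 631 ± 175 CPM in neutrophils. With macrophages taken as 1 class, this exceeded the level of every other class without overlap. In macrophages Cd9 was 1.40- to 2.63-fold the level of T and NK cells. This was the smallest ratio to T and NK cells among the 10 genes by the median of the 6 samples, 1.90-fold. Whether T and NK cells make some of these genes themselves was not tested, so the ratio is not a margin over background.

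Spp1, a secreted ligand of integrins and CD44, was at 2097 ± 1658 CPM in fibroblasts, 1129 ± 610 CPM in macrophages and 1096 ± 655 CPM in neutrophils. These 3 classes overlapped. Fibroblasts were the highest class in 4 of 6 samples, neutrophils in 1 and monocytes in 1. Gpnmb, which is made by pigment cells as well as by macrophages, stood at 2546 ± 572 CPM in melanoma cells, with no overlap with the 220 ± 85.8 CPM of macrophages. Melanoma cells held 5.24- to 21.5-fold more Gpnmb than macrophages of the same sample.

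Counted as molecules rather than levels, macrophages supplied most of the UMIs of some program genes and few of others. By the median of the 6 samples, 76.9% of all Trem2 UMIs came from macrophages, as did 76.4% of Apoe and 71.0% of Lpl. The share was 61.9% for Fabp5, 58.9% for Spp1, 56.7% for Lgals3, 44.3% for Tyrobp and 35.9% for Cd9. For Gpnmb it was 21.5%, with 67.2% from melanoma cells, and for Fabp4 21.2%, with 65.5% from the 194 endothelial cells. Neutrophils supplied up to 70.2% of Cd9 and 45.6% of Spp1 UMIs, both in the αPD-1 + corin replicate 2, in which they were 33.1% of the cells.

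**Figure D2:**
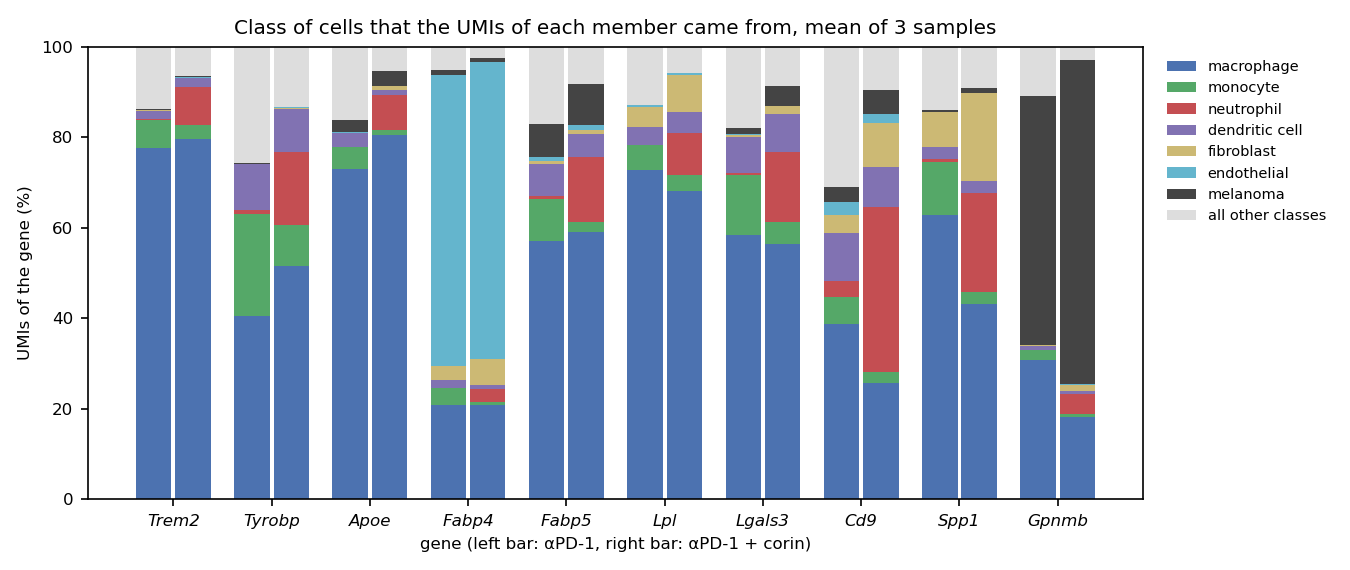
Percent of the UMIs of each program gene that came from each class of cells, as the mean of 3 samples, for αPD-1 (left bar) and αPD-1 + corin (right bar). Macrophages supplied on average 77.7% and 79.6% of Trem2 UMIs in the respective groups, and neutrophils 3.43% and 36.4% of Cd9 UMIs.

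Among macrophages the program genes had their highest means in 2 different states. The state led by Lyve1 and Folr2 (1436 cells), genes known from tissue-resident macrophages, had the highest mean level of Trem2, Tyrobp, Apoe and Lpl. The state led by Mmp12 and Mmp13 (1407 cells) had the highest mean level of the other 6, Fabp4, Fabp5, Lgals3, Cd9, Spp1 and Gpnmb. The largest cluster, led by Ms4a7 and C1qc (3604 cells), and the one led by Ppbp and Ccl24 (1818 cells) lay between them for most genes. Of the remaining clusters, one was led by Camk1d and Gphn (956 cells) and the other by Slc8a1 and Frmd4b (352 cells). The program genes and their pathway genes were left out of the variable genes used for clustering, but other genes of the same cells were used, so no test was run between states.

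Trem2 stood at 287, 422 and 255 CPM in Lyve1 Folr2 macrophages of the αPD-1 replicates 1 to 3 and at 461, 278 and 196 CPM in those of αPD-1 + corin. In Mmp12 Mmp13 macrophages it was at 179, 140 and 148 CPM and at 246, 182 and 118 CPM. Every sample had less Trem2 in the Mmp12 Mmp13 state, at 0.33 to 0.65 times the Lyve1 Folr2 level. Between Lyve1 Folr2 and Ppbp Ccl24 macrophages the order was not fixed, since the former were higher in 4 of 6 samples.

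Apoe separated the states more widely. Lyve1 Folr2 macrophages held 7132, 7796 and 9038 CPM in αPD-1 and 13703, 9993 and 9934 CPM in αPD-1 + corin samples. Mmp12 Mmp13 macrophages held 884, 1265 and 923 CPM and 2940, 1925 and 1663 CPM. These ranges did not overlap, and the Mmp12 Mmp13 level was 0.10 to 0.21 times that of the Lyve1 Folr2 state. Lpl went the same way with ratios of 0.28 to 0.84, and Tyrobp with ratios of 0.81 to 0.86.

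Between the Lyve1 Folr2 and Mmp12 Mmp13 states, Spp1 ran opposite to Apoe. It was at 3834, 4961 and 3865 CPM in Mmp12 Mmp13 macrophages of αPD-1 and at 3960, 2562 and 1503 CPM in those of αPD-1 + corin. In Lyve1 Folr2 macrophages it was at 141, 180 and 271 CPM and at 843, 305 and 6.79 CPM. The Mmp12 Mmp13 level was 4.70- to 221-fold higher, and the widest ratio came from αPD-1 + corin replicate 3. Gpnmb was 10.0- to 31.9-fold, Cd9 8.46- to 30.6-fold, Fabp5 4.77- to 21.5-fold, Fabp4 4.48- to 27.6-fold and Lgals3 3.94- to 7.13-fold higher in the Mmp12 Mmp13 state. All 6 samples went the same way for each of these genes.

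**Figure D3:**
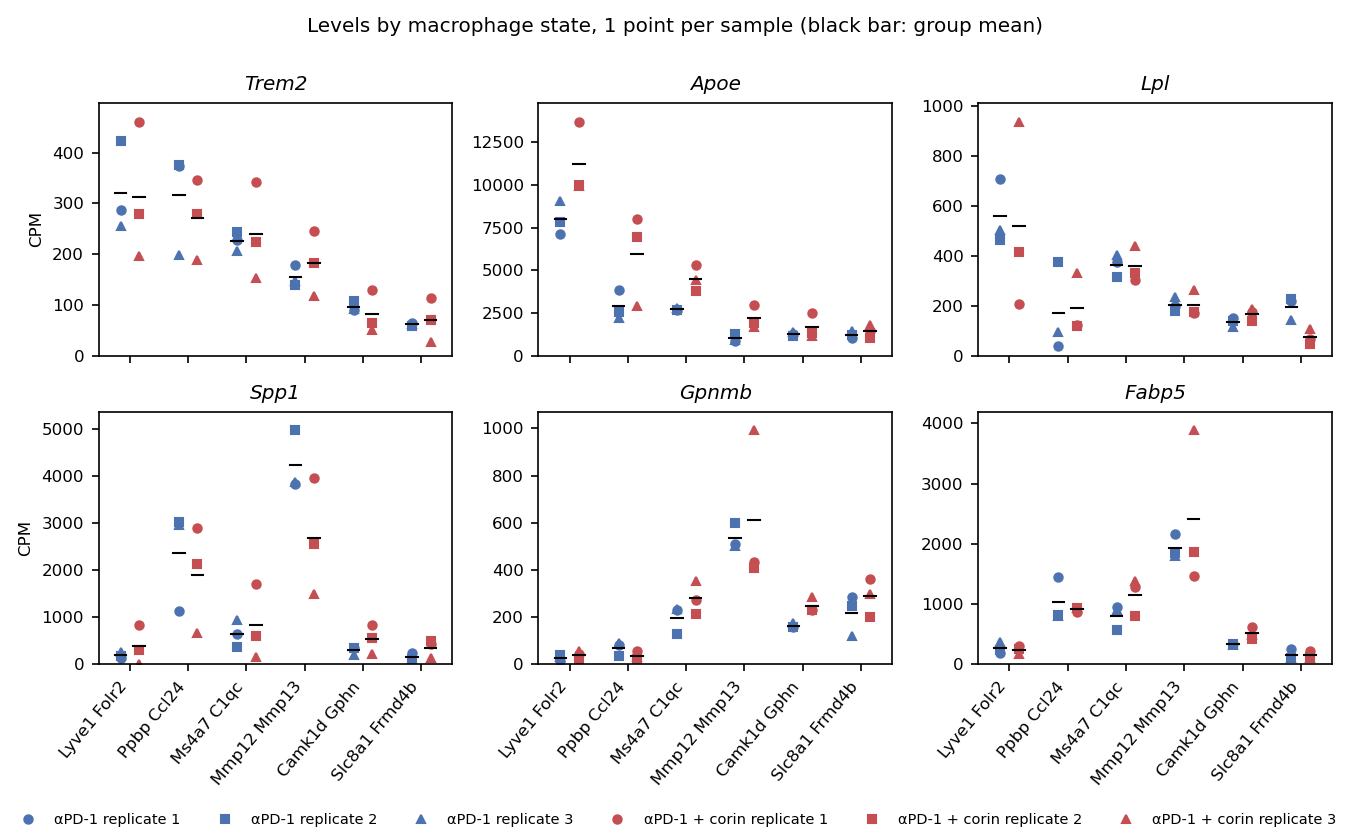
CPM of 6 program genes in the 6 macrophage states, 1 point per sample (blue: αPD-1, red: αPD-1 + corin, marker shape: replicate) and a black bar at each group mean. Trem2, Apoe and Lpl have their highest means in the Lyve1 Folr2 state, and Spp1, Gpnmb and Fabp5 in the Mmp12 Mmp13 state in all 6 samples.

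Ppbp Ccl24 macrophages combined Trem2 at 293 ± 85.2 CPM with Spp1 at 2135 ± 1023 CPM and little Gpnmb, 53.2 ± 27.6 CPM. Thus high Trem2 went with high Spp1 in this state and with low Spp1 in the Lyve1 Folr2 state. In 3 αPD-1 samples this state held only 12 to 32 cells, and 14 in αPD-1 + corin replicate 3.

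Across the 36 sums of 6 states in 6 samples, Pearson's r of log2(CPM + 10) was 0.819 between Trem2 and Tyrobp and 0.741 between Trem2 and Apoe. It was 0.930 between Fabp5 and Lgals3, 0.758 between Lgals3 and Spp1 and 0.755 between Cd9 and Spp1. Some pairs that were highest in the same state had lower values, 0.351 for Trem2 and Lpl, 0.376 for Fabp5 and Gpnmb and 0.261 for Spp1 and Gpnmb. Of pairs highest in different states, Apoe and Gpnmb gave -0.706, Trem2 and Gpnmb -0.517 and Apoe and Spp1 -0.154. But Tyrobp and Fabp5 gave 0.627, Tyrobp and Lgals3 0.621, Trem2 and Fabp5 0.397 and Trem2 and Spp1 0.360. Over these 36 sums the correlations thus did not divide the genes along the line of the 2 states. Camk1d Gphn and Slc8a1 Frmd4b macrophages had little Tyrobp, 604 and 275 CPM against 1658 to 1979 CPM in the other states. From Lyve1 Folr2 over Ppbp Ccl24 and Ms4a7 C1qc to Mmp12 Mmp13 macrophages, mean Tyrobp fell from 1979 to 1658 CPM. Mean Fabp5 rose from 258 to 2173 CPM in that order. The part of those 2 clusters in the correlations was not tested. The 36 points share libraries, depth and clusters, so these are descriptions without a test.

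Over 93 sums of 16 classes and 6 samples, the 3 genes of 10777 whose profile was most like that of Trem2 were C3ar1 (r = 0.948), Lgmn (0.928) and C1qb (0.923). For Spp1 they were Ier3 (0.810), Emilin2 (0.807) and Slc16a3 (0.804), and for Gpnmb Syngr1 (0.871), Met (0.802) and Got1 (0.781). C3ar1 is a complement receptor, C1qb a complement subunit and Lgmn a lysosomal protease.

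The treatment comparison asked how adding corin to αPD-1 changed these levels within a class. edgeR's quasi-likelihood test was run on the sums, with Benjamini-Hochberg adjustment over all genes of the class, and a gene is called at an adjusted p under 0.05. In macrophages 0 of the 10 program genes were called, against 19 of 11622 genes, 0.163%. At an unadjusted p under 0.05 there was 1, Apoe, against 17.9% of all genes. DESeq2 called 1, Apoe, against 1.13% of the 21987 genes with at least 1 UMI. That set is wider than the 11622 genes of edgeR and includes genes of low counts. Here and below, shares by DESeq2 and by edgeR are thus not over the same genes. The log2 fold change was above 0 for 9 of 10 program genes with a median of 0.29, beside a median of 0.0067 over all genes. Scaling by library size alone moved the median of all genes to -0.15 and put Lgals3 (-0.12) and Cd9 (-0.15) below 0 as well.

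Apoe in macrophages stood at 2633, 2967 and 2874 CPM in αPD-1 and at 8224, 5077 and 4028 CPM in αPD-1 + corin samples. The 3 αPD-1 + corin samples all lay above the 3 αPD-1 samples, as in 27.3% of the genes tested in macrophages the groups did not overlap. The log2 fold change was 1.19 ± 0.26 (SE), with an edgeR adjusted p of 0.109 over all genes.

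Trem2 in macrophages stood at 199, 233 and 180 CPM in αPD-1 and at 358, 225 and 131 CPM in αPD-1 + corin samples. The groups overlapped, with the highest and the lowest sample both treated with corin. The log2 fold change was 0.39 (edgeR, adjusted p = 0.528). Spp1 had the same shape, at 1073, 698 and 1217 CPM against 2119, 1337 and 327 CPM, with a log2 fold change of 0.50 (edgeR, adjusted p = 0.637).

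For both genes αPD-1 + corin replicate 3 was the lowest sample. For Lpl (331, 296 and 323 against 193, 229 and 421 CPM) and Gpnmb (241, 160 and 230 against 158, 157 and 378 CPM) it was the highest. Of the other program genes, Fabp5 had a log2 fold change of 0.54 and Tyrobp of 0.31, with edgeR adjusted p of 0.282 and 0.334. Fabp4, Lgals3, Cd9 and Lpl lay between -0.03 and 0.15.

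**Figure D4:**
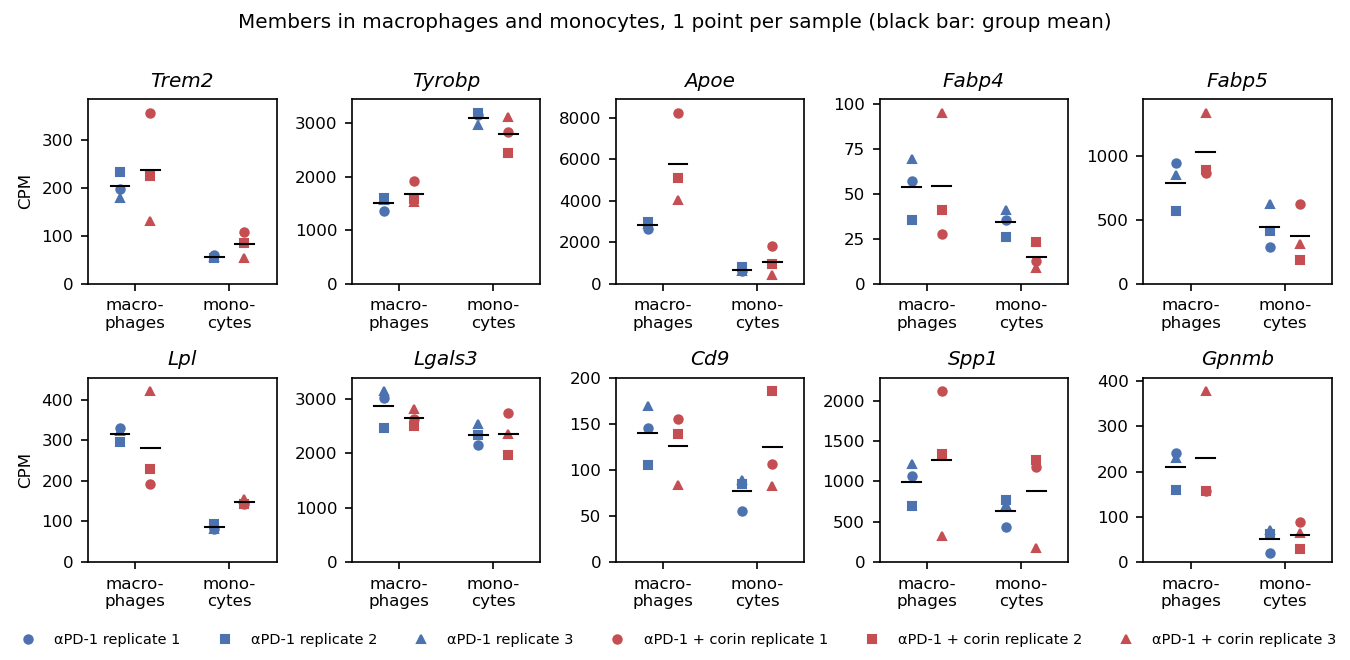
CPM of the 10 program genes in macrophages and monocytes, 1 point per sample (blue: αPD-1, red: αPD-1 + corin, marker shape: replicate) with a black bar at each group mean. Apoe in macrophages and Lpl in monocytes are the genes whose αPD-1 + corin samples all lie above the αPD-1 samples, while Fabp4 in monocytes lies below.

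Without αPD-1 + corin replicate 3, 2522 of 11806 genes were called in macrophages, 21.4%, and 4 of the 10 program genes were among them. Apoe rose by 1.40 ± 0.20, Spp1 by 0.96 ± 0.25 and Trem2 by 0.68 ± 0.19 on the log2 scale, with edgeR adjusted p of 0.0018, 0.0221 and 0.0289. Lpl fell by 0.43 ± 0.14 (edgeR, adjusted p = 0.0463). These calls rest on 2 treated samples, in which Ppbp Ccl24 macrophages made up 28.9% and 32.1% of macrophages against 1.29% to 4.11% in αPD-1 samples. The part of this shift in the state makeup in the change of the whole class was not tested, and the values within states follow.

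Within the states, no program gene was called in any of the 6 by the edgeR test described above. Some alternative edgeR settings did call program genes there, as given in the closing section. In Ms4a7 C1qc macrophages Apoe stood at 2675, 2681 and 2778 CPM in αPD-1 and at 5281, 3772 and 4418 CPM in αPD-1 + corin samples, without overlap. Its log2 fold change was 0.81 ± 0.16 (edgeR, adjusted p = 0.0757). Within Lyve1 Folr2 macrophages it was 0.64 ± 0.17 (adjusted p = 0.107), within Mmp12 Mmp13 macrophages 1.07 ± 0.21 (0.158) and within Ppbp Ccl24 macrophages 1.10 ± 0.36 (0.153), by the same edgeR test. The groups did not overlap in the Lyve1 Folr2 and Mmp12 Mmp13 states, whose values by sample are given above. DESeq2 called Apoe in the Ms4a7 C1qc, Lyve1 Folr2 and Mmp12 Mmp13 states.

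The share of all genes called by edgeR was 0.207% in Ms4a7 C1qc, 0.842% in Lyve1 Folr2, 0% in Mmp12 Mmp13, 0.365% in Ppbp Ccl24, 0.0506% in Camk1d Gphn and 0.0327% in Slc8a1 Frmd4b macrophages. At an unadjusted p under 0.05 there were 3, 1, 4, 1, 6 and 2 program genes in the same order, and 9.51%, 14.1%, 8.72%, 16.7%, 6.11% and 6.11% of all genes. DESeq2 called 0.284%, 0.385%, 0.0992%, 0.192%, 0.0644% and 0.0136% of all genes with at least 1 UMI, and 1, 1, 1, 0, 0 and 0 program genes.

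Beside Apoe, some program genes had values that did not overlap between the groups in a state without being called. In Mmp12 Mmp13 macrophages Cd9 had a log2 fold change of -0.54 ± 0.18 and Lgals3 of -0.39 ± 0.15, with edgeR adjusted p of 0.428 and 0.545. In Camk1d Gphn macrophages Fabp4 had a log2 fold change of 1.60 ± 0.31, Fabp5 of 0.80 ± 0.19 and Gpnmb of 0.77 ± 0.19, with edgeR adjusted p of 0.116, 0.271 and 0.287. Lgals3 in Ms4a7 C1qc macrophages had 0.29 ± 0.14 and Lpl in Slc8a1 Frmd4b macrophages -1.32 ± 0.38, with edgeR adjusted p of 0.541 and 0.376. With Apoe this made 3 of 10 program genes without overlap in Mmp12 Mmp13, 3 in Camk1d Gphn, 2 in Ms4a7 C1qc, 1 in Lyve1 Folr2, 1 in Slc8a1 Frmd4b and 0 in Ppbp Ccl24 macrophages. The share of all genes without overlap was 15%, 14.5%, 17%, 20.6%, 12.1% and 20.3% in the same order.

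Without αPD-1 + corin replicate 3, Apoe was called higher in the Ms4a7 C1qc, Lyve1 Folr2, Mmp12 Mmp13 and Ppbp Ccl24 states, with log2 fold changes of 0.81, 0.75, 1.22 and 1.42. The share of all genes called was then 2.1%, 4.24%, 0.298% and 1.46%. Spp1 was also called in Lyve1 Folr2 macrophages, with 1.79. In Camk1d Gphn macrophages Fabp5, Fabp4 and Spp1 were called against 0.505% of all genes, and in Slc8a1 Frmd4b macrophages 0 program genes were called against 0.586%, with 2 at an unadjusted p under 0.05. The share of all genes at that unadjusted p is not given for this fit, so these 2 have no comparison.

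In monocytes 1 of the 10 program genes was called, Lpl, against 1.47% of all genes. Lpl stood at 82.4, 94.6 and 82.4 CPM in αPD-1 and at 143, 143 and 156 CPM in αPD-1 + corin samples. The groups did not overlap, as for 21.4% of all genes in monocytes. Lpl rose by 0.80 ± 0.14 on the log2 scale (edgeR, adjusted p = 0.0184). DESeq2 also called it, and no other.

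The adjusted p of Lpl in monocytes passed 0.05 when αPD-1 replicate 1 (0.102), 2 (0.0735) or 3 (0.0826) or αPD-1 + corin replicate 2 (0.0762) was left out, with log2 fold changes of 0.76 to 0.87. Lpl in the T and NK cells of the same samples stood at 22.3 to 25.6 CPM and at 22.1 to 57.7 CPM, 2.71- to 6.45-fold under the monocytes. Fabp4 in monocytes stood at 35.6, 25.8 and 40.8 CPM against 12.4, 23.4 and 8.90 CPM, without overlap. It was 0.51 to 7.11 times the level of T and NK cells, and higher than in them in 5 of 6 samples. Its log2 fold change was -1.34 ± 0.33 (edgeR, adjusted p = 0.0615). With the program genes kept in the clustering the calls turned over, as Lpl was lost (log2 fold change 0.76, edgeR adjusted p = 0.107) and Fabp4 was the 1 program gene called, lower in αPD-1 + corin (log2 fold change -1.62, adjusted p = 0.0492).

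In monocytes 4 program genes rose when αPD-1 + corin replicate 3 was left out, against 6.92% of all genes called. These were Apoe (log2 fold change 1.05), Spp1 (0.98), Trem2 (0.85) and Lpl (0.75). Macrophage markers summed to 1283 to 1407 CPM in monocytes of αPD-1 and to 1245 to 2443 CPM in those of αPD-1 + corin, and their part in these changes was not tested.

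The treatment effect of Lpl was larger in monocytes than in macrophages by 0.88 ± 0.24 on the log2 scale, but the edgeR test of that difference gave an adjusted p of 0.217 over 10362 genes. No program gene differed between monocytes and macrophages in this test, in which 0.0772% of all genes did and 5 of the program genes passed an unadjusted p under 0.05 other than Lpl. Between melanoma cells and macrophages no program gene differed either, against 0.0161% of all genes and with 4 at an unadjusted p under 0.05. The share of all genes at an unadjusted p under 0.05 is not given for either difference, so these unadjusted counts have no comparison. DESeq2 was not run for these differences.

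Neutrophils had 2 program genes called, Apoe and Spp1, of 9 tested, against 1.26% of all genes. Spp1 stood at 459, 655 and 406 CPM in αPD-1 and at 1595, 1826 and 1633 CPM in αPD-1 + corin samples, without overlap, as for 20.7% of all genes in neutrophils. It rose by 1.85 ± 0.26 on the log2 scale (edgeR, adjusted p = 0.0043). Apoe stood at 280, 277 and 438 CPM against 2150, 1147 and 1455 CPM and rose by 2.38 ± 0.31 (edgeR, adjusted p = 0.0041).

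The αPD-1 values rest on 17 to 21 neutrophils per sample, with 25 to 45 Spp1 UMIs and 19 to 27 Apoe UMIs. Leaving out any αPD-1 replicate raised the adjusted p of Spp1 to 0.0682, 0.0827 and 0.0508 for replicates 1 to 3, and leaving out replicate 1 or 2 raised that of Apoe to 0.0574 and 0.0932. The 8 macrophage markers in neutrophils summed to 760 to 946 CPM in αPD-1 and to 1364 to 2800 CPM in αPD-1 + corin samples, and their part was not tested. Neutrophil Spp1 was 3.46- to 10.7-fold and neutrophil Apoe 1.21- to 3.26-fold the level of T and NK cells in the same sample. With αPD-1 + corin replicate 3 left out, 6 program genes were tested and the calls were Apoe and Spp1 again, against 5.4% of all genes.

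Fibroblasts also had 2 program genes called, Apoe and Gpnmb, of 9 tested, against 1.91% of all genes. Apoe stood at 39.9, 34.8 and 66.7 CPM against 123, 230 and 418 CPM, and rose by 2.50 ± 0.45 on the log2 scale (edgeR, adjusted p = 0.0211). Gpnmb stood at 19.9, 12.4 and 30.3 CPM against 110, 53.2 and 47.1 CPM, and rose by 1.82 ± 0.40 (edgeR, adjusted p = 0.0402). Neither pair of groups overlapped, as for 25.1% of all genes in fibroblasts.

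These levels were low. Apoe in fibroblasts was 0.13 to 0.94 times that of T and NK cells in every sample, and Gpnmb was under that of T and NK cells in 4 of 6 samples. Whether the fibroblasts made either gene or held it as background was not tested. The αPD-1 sums held 14 to 22 Apoe UMIs and 5 to 11 Gpnmb UMIs. The 7 melanoma markers summed to 19.9 to 45.5 CPM in fibroblasts of αPD-1 and to 57.8 to 349 CPM in those of αPD-1 + corin. The Gpnmb call was lost without any of the samples other than αPD-1 + corin replicate 3 (adjusted p from 0.061 to 0.185), and the Apoe call without αPD-1 replicate 1 (0.113) or 2 (0.111). Both calls were also lost when cells of over 4000 genes were kept, with a log2 fold change of 0.90 for Apoe (edgeR, adjusted p = 0.113) and of -0.09 for Gpnmb (0.971), and that of Gpnmb with LogNormalize (0.061).

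Spp1 in fibroblasts, where it was 4.17- to 25.2-fold the level of T and NK cells, stood at 1612, 388 and 1479 CPM against 3458, 4734 and 913 CPM. The groups overlapped through αPD-1 + corin replicate 3, and the log2 fold change was 1.41 ± 0.56 (edgeR, adjusted p = 0.163). Without that replicate 4 program genes were called in fibroblasts, Spp1 (1.85), Gpnmb (2.04), Apoe (1.92) and Lgals3 (1.43), against 11.8% of all genes.

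In dendritic cells 0 of 10 program genes were called by edgeR, against 0.6% of all genes, with 4 at an unadjusted p under 0.05, against 11.7%. DESeq2 called 0 as well, against 0.399%. Without αPD-1 + corin replicate 3 edgeR called 4, Trem2, Gpnmb, Fabp5 and Cd9, all higher, against 5.38%. Trem2 in dendritic cells was close to the background of T and NK cells (0.60 to 1.14 times), and Gpnmb lay at 0.41 to 1.10 times it, higher in 1 of 6 samples.

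In melanoma cells 7 program genes could be tested and 0 were called by edgeR, against 0% of all genes, with 2 at an unadjusted p under 0.05, against 7.28%. DESeq2 called 0 against 0.0416%. Gpnmb, the most abundant of them in these cells, stood at 1854, 2493 and 2742 CPM against 3394, 2815 and 1980 CPM, with overlap and a log2 fold change of 0.24 ± 0.26. Leaving out αPD-1 + corin replicate 3 gave 0 calls again, against 0.0672%, with 3 at an unadjusted p under 0.05. The share of all genes at that unadjusted p is not given for this fit, so these 3 have no comparison.

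T and NK cells, tested in the same way for comparison, had 5 of 10 program genes called, all higher, against 15.3% of all genes. These were Apoe (1.84), Spp1 (1.35), Fabp5 (1.32), Lgals3 (0.91) and Gpnmb (0.89), given as log2 fold changes. The 8 macrophage markers in these cells summed to 499 to 735 CPM in αPD-1 and to 1016 to 1277 CPM in αPD-1 + corin samples. DESeq2 called 3 of them, Apoe, Fabp5 and Gpnmb, against 5.27% of all genes with at least 1 UMI. The number of program genes called by edgeR was 2, 2 and 3 without αPD-1 replicates 1, 2 and 3, and 5, 8 and 7 without the respective αPD-1 + corin replicates, the last against 11.8% of all genes. For the other fits the share of all genes is not given, so their counts have no such comparison. Apoe and Fabp5 were called in each of these fits. In the largest T and NK cell cluster 25.0% of cells had at least 2 UMIs each of T cell and macrophage markers. The part of RNA from other cells in the changes of each class was not tested.

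**Figure D5:**
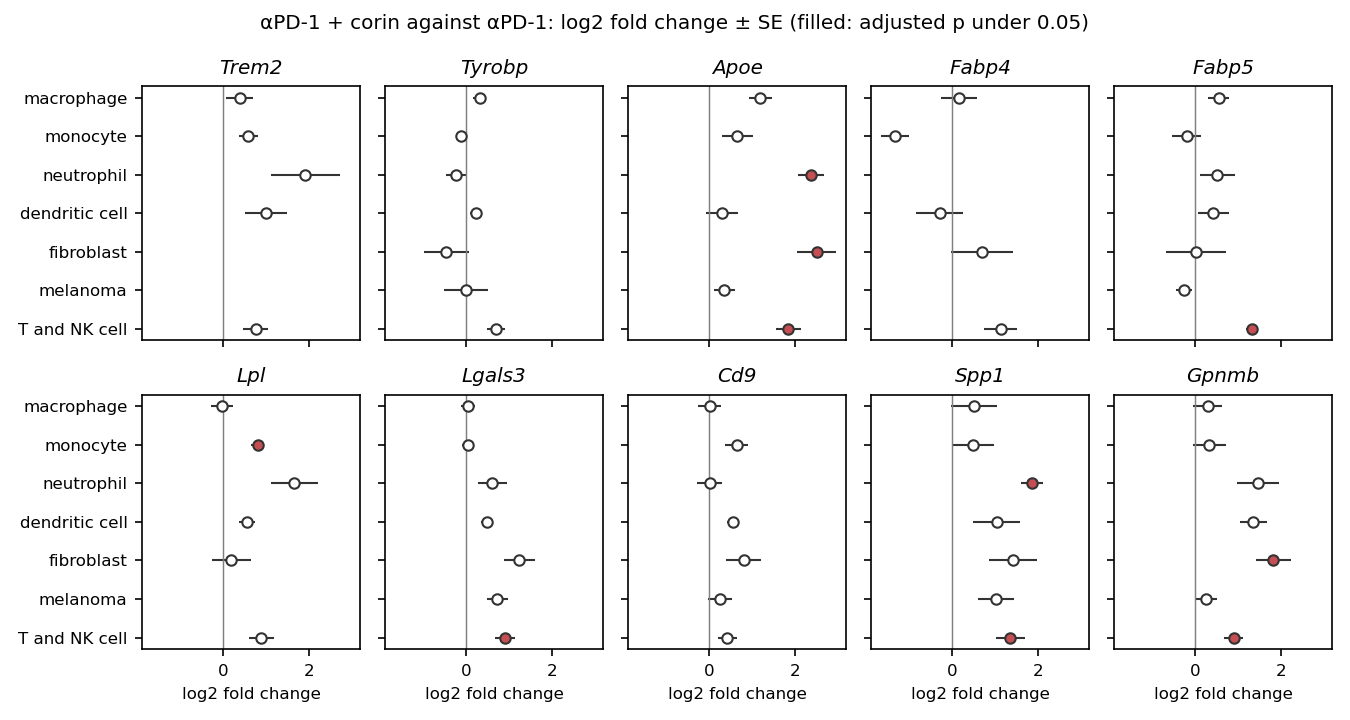
Log2 fold change ± SE of each program gene between αPD-1 + corin and αPD-1 samples (n = 3 each) in 7 classes of cells, with filled points for an adjusted p under 0.05 in edgeR. Filled points are Lpl in monocytes, Apoe and Spp1 in neutrophils, Apoe and Gpnmb in fibroblasts, and 5 genes in T and NK cells, and none in macrophages, dendritic cells or melanoma cells.

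Shares of macrophages with a UMI of a gene were compared after each cell was thinned to 1000 UMIs, which left out 22 and 38 macrophages. Apoe was then seen in 52.3% ± 1.38 of macrophages in αPD-1 and in 71.8% ± 17.1 in αPD-1 + corin samples (SD, n = 3 each), and Fabp5 in 27.1% ± 3.88 and 33.6% ± 1.67. For both, the two-sided exact permutation test gave p = 0.1, the smallest that 3 samples against 3 can give. Trem2 was seen in 12.9% ± 1.68 and 17.7% ± 8.35 of macrophages (exact p = 0.5). Without thinning the Trem2 shares were 36.4% and 44.7%, at median depths of 2991 to 4668 UMIs per macrophage.

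The same shares in T and NK cells give the background, at median depths of 2018.5 to 3620 UMIs before thinning. Trem2 was seen in 0.734% and 2.26% of them, and Apoe in 6.61% and 16.1%, in αPD-1 and αPD-1 + corin samples. Thus the macrophage shares of both genes lay above the background in each group.

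The pathway around these genes was followed with 8 lists of 102 genes in all, of which 93 could be tested in macrophages. By edgeR 0 of the 93 were called, against 0.163% of all genes, and 32 passed an unadjusted p under 0.05, against 17.9% of all genes. DESeq2 called 10, all higher, against 1.13% of all genes with at least 1 UMI. These were Apoc1, Apoc2, Ctss, Psap, Lgmn, Npc2, Msr1, Hcst, Itgam and Fabp7. Without overlap between groups, 11 of the 93 were higher and 10 lower, beside 27.3% of all genes without overlap. The median log2 fold change of the 93 was 0.14 beside 0.0067 for all genes. The 15 lysosomal genes, the degradative side of lipid handling, had the highest median, 0.53. Of these 15, 4 were higher without overlap and none lower, a share no larger than the 27.3% of all genes. The medians were 0.21 for genes of lipid- and disease-associated states, 0.19 for lipid uptake receptors, 0.16 for osteopontin and galectin partners, 0.14 for lipid storage and efflux, 0.06 for lipid-sensing factors, 0.02 for the fatty acid binding family (3 of 8 tested) and -0.03 for TREM2 and TYROBP signalling. Without αPD-1 + corin replicate 3, 31 of 94 list genes were called higher and 10 lower, 12 of the 15 lysosomal genes among the former, against 21.4% of all genes called.

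Apoc1 and Apoc2, apolipoproteins beside Apoe on chromosome 7, were chosen for a closer view after their values were seen. In GRCm39 Apoe lies at chr7:19430034-19434947, Apoc1 at chr7:19422540-19427328 and Apoc2 at chr7:19405504-19411877, all on the minus strand. Apoc2 in macrophages stood at 40.3, 43.1 and 49.1 CPM against 268, 214 and 84.3 CPM, without overlap and with a log2 fold change of 2.26 ± 0.38 (edgeR, adjusted p = 0.0638). Apoc1 stood at 0.50 to 2.54 CPM against 8.06 to 43.5 CPM, with 4.19 ± 0.72 (edgeR, adjusted p = 0.0661), and its αPD-1 sums held 2, 13 and 6 UMIs. By state, Apoc1 was highest in Ppbp Ccl24 macrophages of αPD-1 + corin, at 66.1, 71.6 and 219 CPM, where the 3 αPD-1 samples held 0 UMIs. Its group means were 1.43 and 35.6 CPM in Lyve1 Folr2, 1.58 and 9.94 CPM in Ms4a7 C1qc and 3.31 and 3.46 CPM in Mmp12 Mmp13 macrophages, in αPD-1 and αPD-1 + corin respectively. The part of the state makeup in the fold change of the whole class was not tested. Apoc2 overlaps the annotated gene Apoc2l, so its counts are uncertain.

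In monocytes 80 list genes could be tested and 3 were called, all higher, against 1.47% of all genes. Olr1, a scavenger receptor for oxidized lipoproteins, stood at 16.7, 16.2 and 22.7 CPM against 48.7, 72.5 and 50.4 CPM (log2 fold change 1.57, edgeR adjusted p = 0.0108). Lgals1, galectin-1, stood at 508, 627 and 718 CPM against 1393, 1013 and 992 CPM (0.90, adjusted p = 0.0169). Trem1, a receptor of the same family as Trem2 that also signals through TYROBP, stood at 55.7, 53.5 and 58.2 CPM against 93.6, 98.1 and 89.0 CPM (0.76, adjusted p = 0.0334). None of the 3 overlapped between the groups. The 8 neutrophil markers summed to 144 to 195 CPM in monocytes of αPD-1 and to 489 to 789 CPM in those of αPD-1 + corin, without overlap, and their part in these changes and in that of Lpl was not tested. DESeq2 called 3 list genes in monocytes, of which Lgals1 was the 1 shared with edgeR, beside Apoc2 and Grn. The share of all genes that DESeq2 called in monocytes is not given here.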

How the data were processed

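The authors deposited raw UMI counts per gene and barcode for 6 samples, 3 αPD-1 and 3 αPD-1 + corin, and these counts were used as deposited. The submitters' processing notes name Cell Ranger 8.0, Seurat 5.0.11 and GRCm39. Gene positions came from GENCODE vM39, which holds 31674 of the 32285 identifiers.

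A barcode was kept if it had between 600 and 4000 genes and no more than 10% of its UMIs were mitochondrial. Doublets, which the study removed by DoubletFinder, were scored sample by sample in Scrublet (scanpy 1.11.5), and the highest 0.4% per 1000 barcodes, 2002 in all, were dropped. Clusters were made with Seurat 5.3.0 (SCTransform 0.4.2, 3000 variable genes of which 2929 were used, 20 principal components, resolution 0.8). A cluster took a name from at least 3 markers. A cluster of B and T cell transcripts was left out of every class.

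Sums of UMI counts over the cells of a class in a sample were tested two-sided in edgeR 4.0.16 (quasi-likelihood, TMM, filterByExpr, Benjamini-Hochberg over all genes of the class, 0.05), with DESeq2 1.42.0 in R 4.3.3 as an alternative. DESeq2 was run on all genes with at least 1 UMI in the class, without filterByExpr, and its shares are of that set. The study tested cells with MAST, which is not used here because cells are not replicates. Differences between classes used a class by treatment term with the sample as block. Shares of cells were compared with an exact permutation test (scipy 1.17.1). Samples with under 10 cells of a class were left out of its fit. All classes tested held at least 10 cells in every sample.

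The program genes and the 8 lists were chosen with earlier results of these data known. All 10 program genes are named, and list genes only where called, at 20 CPM or more and without overlap, up to 5 each way in macrophages and 3 in monocytes. List genes named because DESeq2 called them, with Apoc1 and Apoc2, fall outside this rule and were named after their values were seen. For Trem2, Spp1 and Gpnmb the 3 genes of the most similar profile are named. On simulated counts with 200 genes changed by 4-fold, edgeR found 186 with 17 false calls among 11622 genes of the macrophage comparison, and 187 with 17 among 7805 genes of the monocyte comparison. Smaller changes, and a sample that stands apart from its group over many genes, were not simulated. Power for changes smaller than 4-fold was therefore not measured. Alternatives covered the scaling, the test, the filters, the clustering, thinning and each sample left out. Depth is given with the results, and SDs over 3 samples are the only error of the levels.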

Additional observations from a re-analysis of the deposited data

How the results depend on the processing

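Of 462 log2 fold changes of program genes recomputed under the alternatives, 384 kept their direction and side of the threshold, 21 lost a call, 16 gained one and 41 changed sign, mostly values near 0. Their cause was not tested except where fewer samples explain it. In macrophages the number of program genes called was 1 with DESeq2 and 1 without a filter on low counts, and 0 to 4 when 1 sample was left out. In monocytes it was 5 without a filter, 0 with LogNormalize, 0 where cells of over 4000 genes were kept, 2 at 5% mitochondrial UMIs, 2 at resolution 0.4, and 0 to 4 when 1 sample was left out. The 2 were Lpl, higher, and Fabp4, lower, and with the program genes kept in the clustering the 1 called was Fabp4, lower, in place of Lpl. Lpl in monocytes then had adjusted p of 0.126 with LogNormalize and 0.0551 with those cells. These monocyte counts stand without the share of all genes called under the same setting, except without αPD-1 + corin replicate 3 (6.92%).

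Beside 19 genes called in macrophages, there were 55 by library size alone, 249 with DESeq2, 802 without a filter, 4 with LogNormalize, 6 without doublet removal, 72 with cells of over 4000 genes, 38 at 5% mitochondrial UMIs, 6 at resolution 0.4 and 6 at 1.2, 32 without cells holding melanoma marker UMIs and 8 after thinning. Leaving out 1 sample gave 0 to 2522, the latter without αPD-1 + corin replicate 3. Within states, edgeR without a filter called Apoe and Spp1 in Mmp12 Mmp13, Apoe, Fabp5 and Gpnmb in Ms4a7 C1qc and Spp1 in Lyve1 Folr2 macrophages. It also called Apoe and Fabp4 in Ppbp Ccl24 and Fabp4, Fabp5 and Spp1 in Camk1d Gphn macrophages. The same setting called 6 program genes in dendritic cells, 5 in neutrophils, 4 in fibroblasts, 3 in melanoma cells and 9 in T and NK cells. Except for the 802 genes in macrophages, the number of all genes called without a filter is not given. The counts of program genes in these states and classes therefore have no comparison.

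Signs changed in macrophages for Fabp4 at resolution 1.2 (-0.0041) and without the clusters led by Camk1d or Slc8a1 (-0.019), an alternative chosen after seeing the data, as was library size alone. Lpl changed without a filter (0.0019), without doublet removal (0.017) and thinned (0.13). Lgals3 changed by library size (-0.12), with LogNormalize (-0.0059), at 5% mitochondrial UMIs (-0.034) and without those clusters (-0.091). Cd9 changed by library size (-0.15), with the replicate block (-0.013), LogNormalize (-0.037), cells of over 4000 genes (-0.0029), 5% mitochondrial UMIs (-0.088), cells with melanoma UMIs left out (-0.057) and without those clusters (-0.13). In monocytes Fabp5 changed with cells of over 4000 genes (0.079), and Spp1 with LogNormalize (-0.18) and with the program genes kept in the clustering (-0.014). In fibroblasts Gpnmb changed with cells of over 4000 genes (-0.085). Without thinning, the difference in the share of macrophages became 0.26 percentage points for Lpl and 0.86 for Cd9.

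With 1 sample left out, log2 fold changes in macrophages ran from -0.047 to 0.68 for Trem2, -0.51 to 0.48 for Fabp4, -0.43 to 0.18 for Lpl, -0.074 to 0.12 for Lgals3, -0.19 to 0.24 for Cd9, -0.12 to 0.96 for Spp1 and -0.25 to 0.50 for Gpnmb. Those in monocytes ran from -0.020 to 1.05 for Apoe, -0.77 to 0.14 for Fabp5, -0.080 to 0.13 for Lgals3 and -0.032 to 0.66 for Gpnmb. Apoe in macrophages ran from 0.83 to 1.40, the highest without αPD-1 + corin replicate 3.

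The titles number the samples 1 to 3 in both groups, but same-numbered samples deviated together in no pair of macrophage sums (correlations of -0.040, -0.087 and -0.14). The samples were therefore not treated as pairs, although 3 samples per group cannot exclude a pairing. With the replicate block 20 genes and 0 program genes were called in macrophages, and 78 genes against 115, with Lpl again, in monocytes. Within Mmp12 Mmp13 macrophages the replicate block called Apoe, and the share of all genes called there is not given. Depth limits several classes of few cells per sample. Of αPD-1, Ppbp Ccl24 macrophages held 12 to 32, neutrophils 17 to 21 and fibroblasts 40 to 63 cells, and Slc8a1 Frmd4b macrophages of αPD-1 + corin 26 to 50.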
